A study of Homo sapiens with 39 samples.

Results

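The comparison described here sets CHP-134 TRIM37 mutant clone 1 (3 libraries) against CHP-134 wild type (3 libraries), neither of them treated with a drug. CHP-134 is a neuroblastoma line with an amplified MYCN gene. The labels give the genotype of the mutant as a partial TRIM37 knockout, and it is 1 clone, so what follows from the TRIM37 change and what follows from having grown out 1 clone cannot be told apart. The whole series holds 39 libraries of CHP-134 and RPE1 cells. Values of CHP-134 clone 2, a further partial knockout with 3 libraries, and of an RPE1 TRIM37 knockout (9 libraries against 9 of wild type, none of them drug-treated) are given only where they show how clone 1 differs. RPE1 is an untransformed retinal pigment epithelial line immortalised with telomerase.

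The members are all genes that the authors' deposited table for this comparison gives the Status OK, 12791 of its 23710 gene symbols. A further 671 have the Status Outlier and are described apart, and 10248 have the Status Low, with a mean count of at most 9.98. The table holds 1 line per gene and no value per library: a mean count, a log2 fold change of clone 1 over wild type the standard error (SE) of that change, and a q value (a p-value adjusted for many tests). All mean counts, log2 fold changes, SE and q values below are from the authors' deposited tables. A gene is called when its Status is OK and its q is under 0.05. Depth per library is unknown, and the labels do not say whether the 3 libraries of a group came from separate cultures, so a q may measure only technical spread.

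TRIM37 is a RING-type ubiquitin ligase. It holds down the centrosomal protein CEP192 outside the centrosome and limits how cells build a spindle after they lose their centrioles, which cells do when the kinase PLK4 is inhibited. The gene lies on chromosome 17, whose long arm is often gained in neuroblastoma. Neuroblastoma cells resemble precursors of sympathetic neurons, and their adrenergic state is marked by transcription factors such as HAND2 and GATA3 and by genes of vesicles and neurites.

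The markers of the line were in place. Of 15 neuroblastoma and sympathetic markers, 13 were above the count limit, with HAND2 at a mean count of 7580 and CHGA at 12100. The catecholamine enzymes TH and DBH were under it, at 6.95 and 5.26. Markers of other lineages were low or absent: SOX10, CDH1, KRT19, CD3E and MS4A1 were listed at 0. PTPRC and CD68 stood at 46.6 and 48.9 and did not pass the test. MYCN stood at 49700 against 0.18 in the RPE1 table.

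TRIM37 itself fell by 1.66 on the log2 scale (SE 0.0337), 3.16-fold lower in clone 1. From the mean count and the fold change the level of each group can be worked out for 3 libraries against 3, and this gives 8189 counts in wild type and 2591 in clone 1. These are called implied means. Implied wild type means from the clone 1 and clone 2 tables, which share the wild type libraries, differed by an SD of 0.0074 on the log2 scale around a constant offset over 10126 genes. With the sign of the clone 1 table reversed that SD was 0.209, so the direction of the table does not rest on TRIM37. The fall of TRIM37 was 1.75 (SE 0.0416) on the log2 scale in clone 2 and 1.95 in the RPE1 knockout. It was smaller in clone 1 than in the RPE1 knockout by 0.29 (adjusted p = 3.51e-06, difference of the 2 log2 fold changes over its SE, Benjamini-Hochberg over 11194 genes).

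In all, 2388 genes (18.7%) were called, 1228 higher (9.6%) and 1160 lower (9.07%). Most changes were small. The median size among called genes was 0.28 on the log2 scale, and 1257 called genes, 52.6%, changed by less than 0.3. Only 68 rose and 74 fell by a log2 of at least 1. The median of all Status OK genes was -0.0068. The number called rests on the spread assumed for unchanged genes: when each statistic was divided by the spread of the central genes (the rescaled statistics below), 155 rose and 88 fell. Of the 40 genes named next, 39 also passed in that rescaled test, TPGS1 being the exception.

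**Figure D1:**
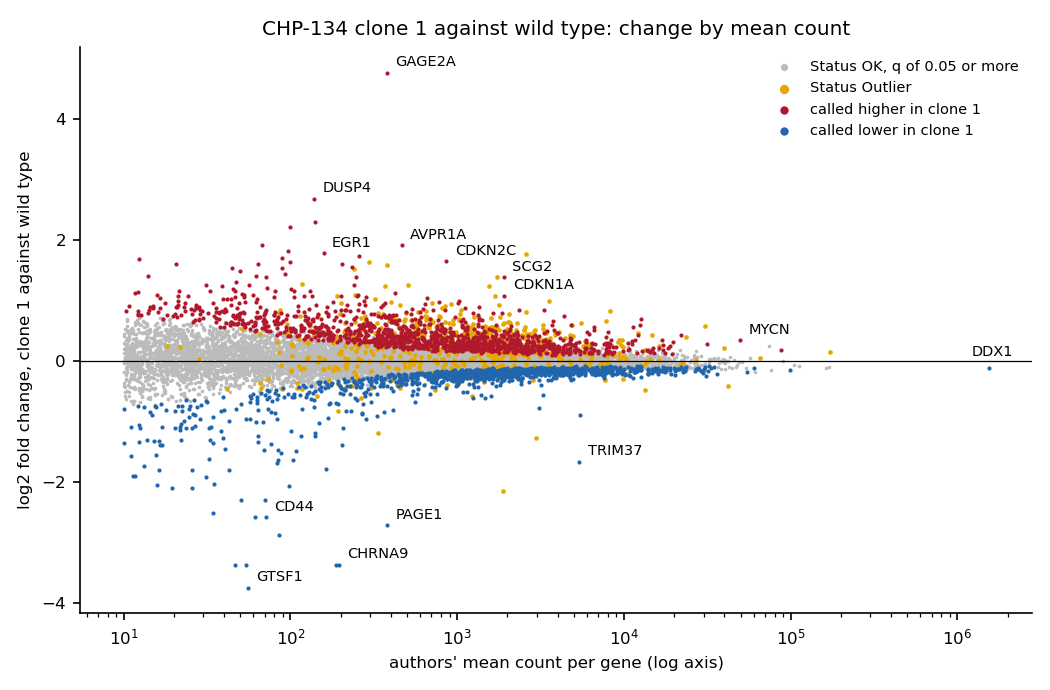
Log2 fold change of clone 1 against wild type (vertical) by the authors' mean count per gene (horizontal, log axis), 1 point per gene with Status OK or Outlier. Red and blue points are the 1228 genes called higher and the 1160 called lower. Large changes sit mostly at low mean counts, and TRIM37, at a mean count of 5390, is a far outlying point among abundant genes.

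The 20 largest rises, taken among called genes whose mean count reached 50, ran from 1.39 to 4.76 on the log2 scale. They fell into a few known roles. Signalling and its brakes gave DUSP4 (2.68), DUSP8 (1.74), EGR1 (1.78), ARC (1.71), CREB5 (1.64) and the vasopressin receptor AVPR1A (1.92). Inhibitors of cyclin-dependent kinases gave CDKN2C (1.65) and CDKN2A (1.43). Targets of the tumour suppressor p53 gave the receptor EDA2R (1.91) and the mitochondrial quality factor SPATA18 (1.39). Neuronal genes gave the stathmin STMN4 (1.82), the neuropeptide NPY (1.54) and dystrobrevin DTNA (1.61). The others were GAGE2A, ZNF528 (2.29), LRRC46 (2.22), GPR56 (1.61), LOC283731 (1.56), ADAT3 (1.49) and TPGS1 (1.40). SCG2, described with the granins, tied with SPATA18 at 1.39 for the last place.

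AVPR1A went from an implied mean of 194.0 in wild type to 734.0 in clone 1, with an SE of 0.114. It also rose in clone 2, by 1.09, and the 2 changes differed (adjusted p = 7.29e-06). CDKN2C, an inhibitor of cyclin-dependent kinases, went from 416.6 to 1307. Its rise in clone 2 was 1.48, and the difference from clone 1, 0.17 (SE 0.138), did not pass (adjusted p = 0.435). In the RPE1 knockout CDKN2C stood at 0.09 (q = 0.0762), and clone 1 exceeded it by 1.56 (adjusted p = 2.79e-41). DTNA, NPY and LOC283731 are of a different kind: they rose in clone 1 and fell in clone 2, and the difference between the clones passed for each.

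The 20 largest falls ran from -1.47 to -3.74. GTSF1, a factor of small-RNA silencing in germ cells, fell the most, from an implied mean of 103.3 to 7.73. CHRNA9, a nicotinic acetylcholine receptor subunit, went from 357.2 to 34.8, and RCN1, a calcium-binding protein of the endoplasmic reticulum, from 340.8 to 33.2. GSTM1, a glutathione transferase whose close copies may share its reads, went from 99.0 to 9.64. CD44, a hyaluronan receptor of mesenchymal cells, and CALD1, an actin-binding caldesmon, stood at -2.58 and -2.57 on the log2 scale. The germline and stem cell genes PAGE1 and SALL4 stood at -2.71 and -2.07. Also here were LINC00654 (-2.87), TMEM56 (-2.30), NOS2 (-2.29), OTX2 (-1.68), LPL (-1.63), SSH3 (-1.52), LOC441666 (-1.47), PDZRN4 (-1.47) and the zinc finger genes ZNF829 (-1.78), ZIK1 (-1.64) and ZNF568 (-1.49). TRIM37 was among them, and at a mean count of 5390 was the only one of them above 400.

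**Figure D2:**
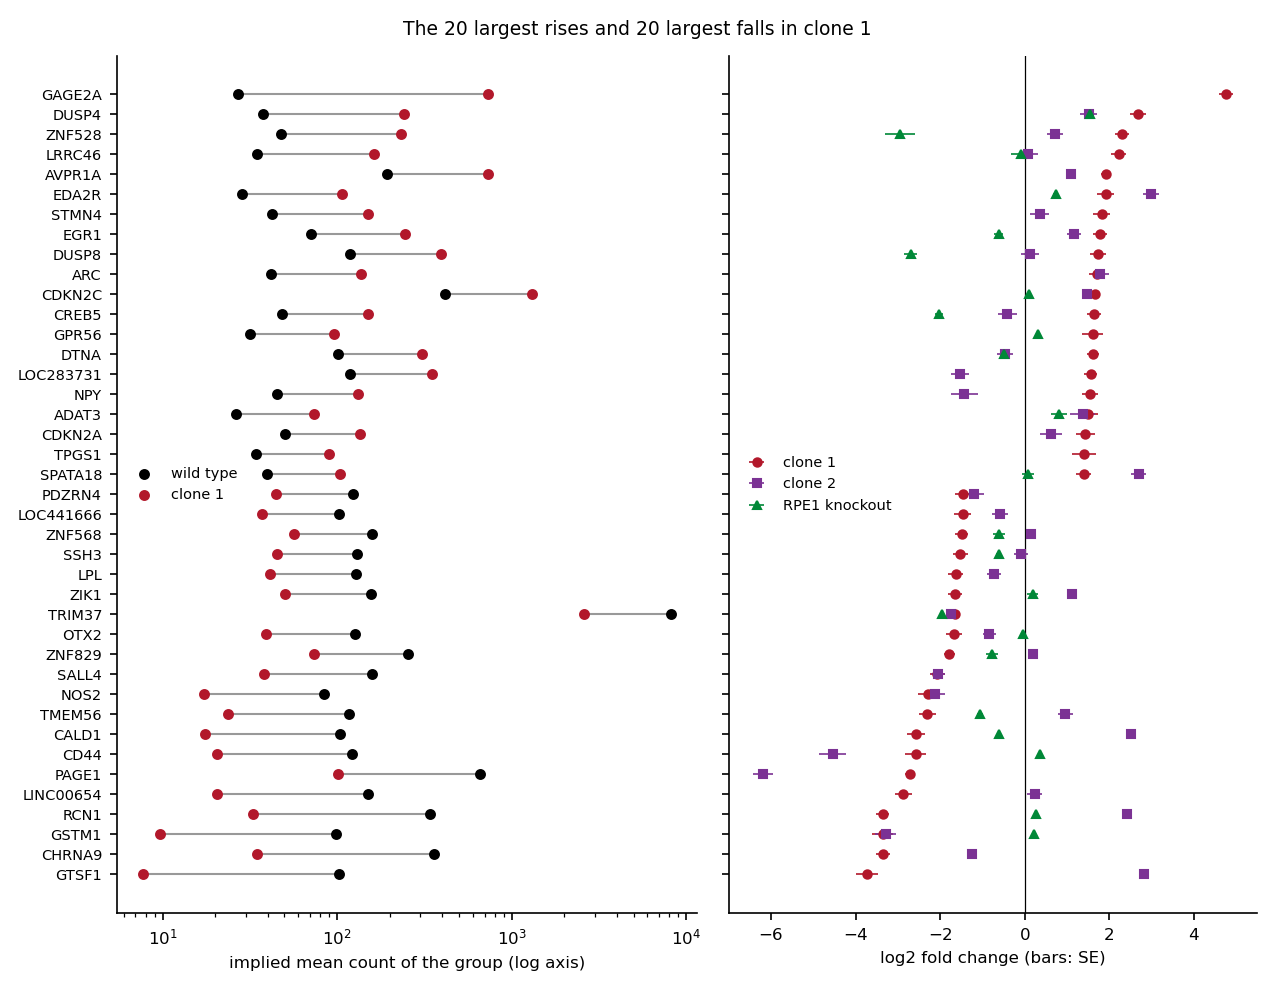
Left, implied mean count in wild type (black) and clone 1 (red) on a log axis for the 20 largest rises and 20 largest falls. Right, log2 fold change with SE in clone 1 (red circles), clone 2 (purple squares) and the RPE1 knockout (green triangles), where the Status is OK. GTSF1, RCN1 and CALD1 lie on opposite sides of 0 in the clones, while CDKN2C, NOS2, SALL4 and GSTM1 lie close together in them.

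How far these genes behaved alike in clone 2 was tested gene by gene. Over 12579 genes measured in both tables, 2580 (20.5%) changed by different amounts in the clones, and 599 with rescaled statistics. The clones share their wild type libraries, which the SE of the difference does not take into account. GTSF1 fell by 3.74 in clone 1 and rose by 2.81 in clone 2. RCN1 stood at -3.36 and 2.41, and CALD1 at -2.57 and 2.52. NOS2, the inducible nitric oxide synthase, stood at -2.29 and -2.13 (adjusted p of the difference = 0.80), and SALL4 at -2.07 and -2.05 (adjusted p = 0.968). In the RPE1 knockout 9 of the 20 falls were under the count limit, among them GTSF1, CHRNA9, PAGE1, NOS2, SALL4 and LPL. Over 11194 genes measured in both, 3813 (34.1%) differed between clone 1 and the RPE1 knockout, and 663 with rescaled statistics.

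Genes of the neuronal cytoskeleton and of neuronal RNA binding rose as a group in clone 1. Of the 28 listed, 22 were called higher and 0 lower, against 9.6% of all genes called higher, with a median of 0.25. GAP43, a growth cone protein, went from an implied mean of 915.3 to 1585, a log2 fold change of 0.79 (SE 0.0795, q = 6.19e-21). STMN4, a tubulin-binding stathmin, went from 42.6 to 150.2, which is 3.53-fold higher. RBFOX3, the splicing factor known as the antigen NeuN, rose by 0.71, and the tubulin TUBB2A by 0.59. Neurofilament genes moved little: NEFL stood at 0.22 and NEFH at 0.12, both called, and NEFM at 0.08, not called. In clone 2, 10 members were called higher and 10 lower, with a median of -0.03, and GAP43 stood there at -0.85. In bulk RNA more cells of a kind and more RNA per cell cannot be told apart. The GAP43 changes differed by 1.64 (SE 0.125, adjusted p = 2.53e-37).

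Genes of synaptic vesicles and exocytosis went the same way, 14 called higher and 1 lower of 32, with a median of 0.25. The vesicle GTPase gene RAB3A rose by 0.75 (SE 0.109), synapsin SYN1 by 0.56, synaptobrevin VAMP2 by 0.36 and the membrane fusion gene STX1A by 0.21. SYPL1, a synaptophysin relative of non-neuronal tissues, was the 1 that fell, by 0.41. In clone 2, 8 of the 32 were called higher and 11 lower, with a median of 0.04. RAB3A and VAMP2 rose in clone 2 too, by 0.63 and 0.27, while SYN1 stood there at 0.02 (q = 0.832).

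Voltage-gated channels and glutamate and GABA receptors followed. Nicotinic receptor subunits did not, with 1 rise and 1 fall (CHRNA9) of 8. Genes of calcium release and store handling gave 2 rises and 3 falls of 21, with a median of -0.03. Of 31 voltage-gated channel genes 10 were called higher and 0 lower, with a median of 0.20. In clone 2, 7 of the 31 were called higher and 9 lower, with a median of -0.11. The changes named next are those of clone 1. SCN3A, a sodium channel of immature neurons, went from an implied mean of 266.0 to 578.0, a log2 fold change of 1.12 (SE 0.157). The potassium channel KCND2 rose by 0.77 and the calcium channel CACNA1B by 0.40. Of 17 glutamate and GABA receptor genes 4 rose and 0 fell: GRIA4 by 0.94, GRIA2 by 0.62, GRIK2 by 0.49 and GRIN1 by 0.28. All 4 were lower in clone 2 and were called there, at -0.80, -0.47, -0.54 and -0.17. GRIN1 no longer passed in clone 1 with the trend by GC content, described at the end, removed (0.04).

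Genes of catecholamine synthesis and transport, neuropeptides and granins gave 5 rises and 0 falls of 13. SCG2, a secretogranin of dense-core vesicles, went from 1055 to 2765 and rose by 1.39 (SE 0.0613). It fell by 0.93 in clone 2, and it rose by 1.58 in the RPE1 knockout, where the difference from clone 1 did not pass (-0.19, adjusted p = 0.377). NPY, a sympathetic cotransmitter, went from 45.3 to 131.7. The chromogranin CHGA rose by 0.43.

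The adrenergic transcription factors changed by less. Of 20, 7 were called higher and 2 lower, with a median of 0.10. PHOX2A rose by 0.44, MYCN by 0.35 and HAND2 by 0.28. TFAP2A, a neural crest factor, fell by 1.27, from an implied mean of 55.4 to 23.0, and LMO1 by 0.73. PHOX2A, too, parted the clones, standing at -0.86 in clone 2 (difference 1.29, SE 0.067, adjusted p = 2.75e-80).

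With the rescaled statistics 9 of the cytoskeletal and RNA-binding genes, 3 of the vesicle genes, 3 of the channels, 1 of the glutamate and GABA receptors, 2 of the granin list and 1 of the adrenergic factors were still higher, and none of these 6 lists had a fall. With the GC trend removed the counts of higher genes in the first 3 lists were 18, 15 and 8.

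**Figure D3:**
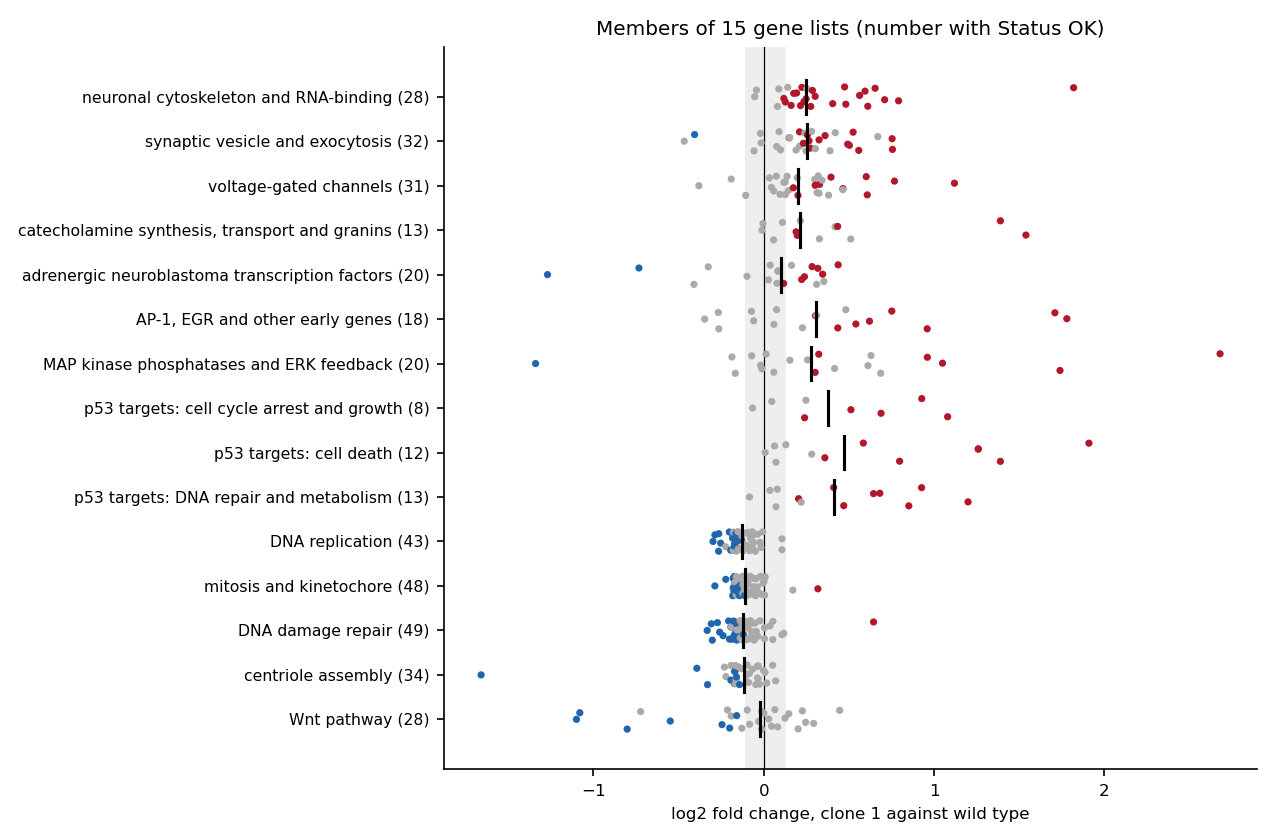
Log2 fold change of every Status OK member of 15 gene lists, 1 point per gene, with the number of members in parentheses. Red, blue and grey points are members called higher, called lower and not called, the black bar is the list's median, and the grey band spans the middle quartiles of all genes, -0.10 to 0.13. The neuronal, early gene and p53 lists spread to the right, and the replication, mitosis, repair and centriole lists sit slightly left of 0.

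Early response genes are switched on within minutes when growth factor or calcium signals reach the nucleus, and dual-specificity phosphatases and Sprouty proteins are made in turn to shut the MAP kinases down. In clone 1, 8 of 18 early genes were called higher and 0 lower, against 9.6% of all genes called higher, with a median of 0.31. EGR1, a zinc finger factor, went from an implied mean of 71.3 to 244.7. ARC, a synaptic early gene, went from 41.8 to 136.6, FOS from 15.9 to 30.9 and FOSL2 from 78.2 to 131.8. MAFF stood at 0.62 and ATF3 at 0.54. The orphan receptor genes NR4A1 and NR4A3 were not called, at -0.07 and -0.35.

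Among 20 MAP kinase phosphatases and ERK feedback genes 6 rose and 1 fell. DUSP4 went from 37.5 to 240.5, DUSP8 from 118.0 to 394.0, DUSP16 from 249.1 to 484.9 and SPRY2 from 68.4 to 141.6. DUSP1 and SPRED2 rose by 0.32 and 0.30. DUSP9 went the other way, from 91.9 to 36.3. DUSP5 and DUSP6 stood at 0.69 and 0.63 and did not pass.

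DUSP8 separated clone 1 from both other comparisons. It stood at 0.12 (q = 0.667) in clone 2 and fell by 2.70 in the RPE1 knockout, so that clone 1 exceeded the knockout by 4.44 (adjusted p = 1.33e-70). EGR1 rose by 1.17 in clone 2 and fell by 0.61 in the RPE1 knockout. ARC rose by 1.79 in clone 2, and its difference from clone 1 did not pass (adjusted p = 0.885). With rescaled statistics 2 early genes, EGR1 and ARC, and 5 of the feedback genes passed in clone 1. As a list, early genes gave 8 rises and 1 fall of 19 in clone 2, with a median of 0.05. In the RPE1 knockout they gave 10 rises and 10 falls of 24, with a median of -0.07.

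The upstream windows of EGR1 and DUSP8 are shown because both genes rose strongly and hold repeated sites for a signal-driven factor. Capitals mark the CArG box bound by serum response factor in EGR1 and the cyclic AMP response element TGACGTCA in DUSP8. The sequences are from RefSeq (GRCh38.p14), 5′ to 3′ on the gene's strand, and end before the start of transcription.
EGR1: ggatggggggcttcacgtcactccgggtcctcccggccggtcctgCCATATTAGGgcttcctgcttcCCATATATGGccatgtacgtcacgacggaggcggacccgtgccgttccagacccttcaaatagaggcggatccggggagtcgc
DUSP8: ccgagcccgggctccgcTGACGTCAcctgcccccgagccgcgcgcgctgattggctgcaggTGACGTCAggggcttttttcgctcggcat

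The EGR1 window is chr5:138465329-138465478 on the plus strand, with CArG boxes that begin 105 and 83 bases before the start. The DUSP8 window is chr11:1572317-1572406 on the minus strand, with elements that begin 118 and 74 bases before it. Both strands of the 250 bases before the start were searched. A CArG box was found in 1.14% of 27305 RefSeq promoters in 0.976% of those of Status OK genes, in 0.956% of those of genes called higher and in 2 of the 12 early gene promoters at hand. TGACGTCA was found in 1.77% of all promoters and 2.92% of those of Status OK genes, and in 3.83% of those of genes called higher and 3.07% of those of genes called lower. A match is a description of the letters and shows no binding.

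Targets of p53 rose in all 3 functional lists and none fell. Of 8 arrest and growth genes 5 rose, of 12 cell death genes 7 and of 13 repair and metabolism genes 8, with medians of 0.38, 0.47 and 0.41. The lists rose in the other comparisons too. In clone 2, 6, 9 and 10 members of the 3 lists rose and 0, 1 and 2 fell. In the RPE1 knockout 11 of 13, 13 of 15 and 9 of 14 rose, and 1, 0 and 3 fell. Medians were 0.68, 0.64 and 0.49 in clone 2 and 0.41, 0.315 and 0.3375 in the RPE1 knockout. In clone 1 CDKN1A, the inhibitor p21, went from an implied mean of 1233 to 2607. PHLDA3, which restrains AKT, went from 140.8 to 337.2, and the death receptor EDA2R from 28.4 to 106.6. PTCHD4 rose by 1.20 and the repair gene DDB2 by 0.64. MDM2, itself a p53 target, was not called (0.07, q = 0.468). In the RPE1 knockout MDM2 rose by 0.95, above clone 1 (adjusted p = 1.89e-35).

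Several of these rises were larger in clone 2: CDKN1A rose there by 1.74 (adjusted p of the difference = 2.24e-07), PHLDA3 by 2.22 and SPATA18 by 2.70. ZMAT3, a p53-induced RNA-binding protein, rose by 0.51 in clone 1 and stood at -0.08 in clone 2 (adjusted p = 4.18e-14). PERP, a membrane protein of p53-dependent death, rose by 0.58 in clone 1 and fell by 0.43 in clone 2. With rescaled statistics 3, 4 and 4 members of the 3 lists rose.

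Inhibitors and partners of the cyclin-dependent kinases were spread in both directions, 5 higher and 6 lower of 26. All the rises but the cyclin were inhibitors. CDKN2C went from 416.6 to 1307 implied counts, CDKN2A from 50.5 to 135.9, CDKN1C from 51.5 to 106.7 and CDKN2D rose by 0.45. The cyclin CCND1 went from 9703 to 15697. Those that fell were E2F7 (-0.41), RBL1 (-0.37), CDK2 (-0.24), CCNE2 (-0.17), CCNB1 (-0.15) and RB1 (-0.12). With rescaled statistics CDKN2C, CDKN2A and CCND1 passed and 0 fell.

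A part of the genes of DNA replication, mitosis and repair fell by small amounts. DNA replication genes gave 0 rises and 16 falls of 43 (against 9.07% of all genes called lower), with a median of -0.13. The falls ran from -0.13 for CLSPN to -0.30 for POLE2, a polymerase epsilon subunit. MCM6, of the replicative helicase, went from 7085 to 6355 implied counts, CDC6, which loads it, from 10248 to 9052 and POLA1, of the primase complex, from 3777 to 3283.

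Mitosis and kinetochore genes gave 1 rise and 15 falls of 48, with a median of -0.11. ANLN, a cytokinesis scaffold, fell by 0.22, the checkpoint kinase BUB1 by 0.18, the topoisomerase TOP2A by 0.17 and separase ESPL1 by 0.18. UBE2C, a ubiquitin-conjugating enzyme of the anaphase-promoting complex, rose by 0.32. MKI67 and PLK1, often used as proliferation markers, stood at -0.08 and 0.01 and were not called. DNA damage repair genes gave 1 rise, DDB2, and 18 falls of 49, among them MSH6 (-0.27) and NBN (-0.30).

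With the rescaled statistics 0 replication and 0 mitosis genes passed, and of the repair genes DDB2 rose and MSH6 fell. With the GC trend removed 10 replication, 8 mitosis and 10 repair genes fell. In clone 2, against the same wild type, replication genes gave 2 rises and 29 falls of 43, with a median of -0.18, and mitosis genes 7 rises and 22 falls of 48, with a median of -0.16. In the RPE1 knockout, replication genes gave 14 rises and 6 falls of 45, with a median of 0.02. ESPL1 rose there by 0.43, a difference of 0.60 from clone 1 (adjusted p = 3.00e-16).

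Upstream windows of ANLN and ESPL1 show the cell cycle homology region TTTGAA, and that of MCM6 the E2F site TTTGGCGC, in capitals, as examples of sites for which genes of mitosis and of replication are known.
ANLN: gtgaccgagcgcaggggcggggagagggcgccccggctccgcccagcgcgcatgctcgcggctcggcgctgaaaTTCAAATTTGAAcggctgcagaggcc
ESPL1: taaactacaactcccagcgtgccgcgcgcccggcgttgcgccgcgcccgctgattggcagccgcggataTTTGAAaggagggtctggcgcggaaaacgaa
MCM6: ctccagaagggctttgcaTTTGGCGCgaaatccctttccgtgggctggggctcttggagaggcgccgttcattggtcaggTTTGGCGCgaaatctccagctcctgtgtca

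The windows are chr7:36389762-36389861 (plus), chr12:53268199-53268298 (plus) and chr2:135876504-135876613 (minus), all from RefSeq. In ANLN a match on the minus strand and one on the plus strand lie side by side. TTTGAA was found on either strand in 13.6% of all promoters and 8.13% of those of Status OK genes, and in 20 of 41 mitosis gene promoters. TTTGGCGC or TTTCCCGC was found in 1.96% of all promoters and in 11 of 36 replication gene promoters. Over all called genes TTTGAA was in 9.20% of promoters of genes called lower and 5.95% of those called higher. Genes called lower lay more often at low transcript GC content, described at the end. These shares were not adjusted for GC content, and its part in them was not tested.

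Centriole assembly genes gave 0 rises and 9 falls of 34, TRIM37 included, with a median of -0.12. PLK4, the kinase that starts centriole duplication, went from an implied mean of 2097 to 1863 (-0.17, q = 0.0155). The scaffold gene STIL stood at -0.16, RTTN at -0.33 and the delta-tubulin TUBD1 at -0.39, all called. CEP192, whose protein is a known substrate of TRIM37, stood at -0.14 (SE 0.0516, q = 0.0347). With the GC trend removed 4 of these falls were left and PLK4 and CEP192 no longer passed, and with rescaled statistics only TRIM37 passed. Of the p53-side partners in the response to centrosome loss, USP28 fell by 0.23 (q = 0.000257) and TP53BP1 stood at -0.04 (q = 0.496). Of 33 genes of the pericentriolar material and gamma-tubulin rings, 0 rose and 6 fell, 18.2% called against 18.7% of all genes. With the GC trend removed 1 of this list fell, and with rescaled statistics 0. PEX5, a peroxisome import receptor, stood at 0.04 (q = 0.678). In clone 2, against the same wild type, centriole assembly genes gave 1 rise and 20 falls of 34, with a median of -0.19. The pericentriolar and gamma-tubulin list gave 2 rises and 14 falls of 32 there, and PLK4 fell by 0.25.

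TRIM37 is also known as a ligase for histone H2A, acting with polycomb complexes. Of 35 polycomb genes 1 rose and 8 fell, against 9.07% of all genes called lower, with a median of -0.08. With the GC trend removed 1 rose and 4 fell. In clone 2, 11 of the 35 rose and 8 fell, with a median of 0.0017. The changes named next are those of clone 1. EED fell by 0.28, SUZ12 by 0.21 and EZH2 by 0.12, and BMI1 rose by 0.79 at an implied mean of 27.4 in wild type. Of 34 TRIM family genes, TRIM37 included, 5 rose and 3 fell, 23.5% called against 18.7% of all genes. With rescaled statistics 0 TRIM genes rose and TRIM37 and TRIM25 fell, and 0 polycomb genes passed. TRIM25, an RNA-sensing ligase, fell by 0.56, from 1655 to 1125, and stood at -0.02 in clone 2 (adjusted p of the difference = 2.77e-07). Of 18 HOX genes 5 rose and 0 fell, with rescaled statistics 2 and 0, and HOXC10 went from 86.7 to 183.3, against -1.90 in clone 2.

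Wnt pathway genes gave 0 rises and 7 falls of 28, with a median of -0.02, near that of all genes. The transcription factor LEF1 fell by 1.08 and the ligands WNT10B and WNT5A by 1.10 and 0.80, all at implied means under 23 in wild type. AXIN2, a feedback target of the pathway, went from 832.0 to 702.0, and CTNNB1, beta-catenin, from 7417 to 6643. CTNNB1 rose in clone 2 by 0.20 (adjusted p of the difference = 7.60e-13). NOTUM, which inactivates Wnt ligands, fell by 0.55 and TCF7 by 0.20. None of the 7 passed with rescaled statistics.

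Matrix and mesenchymal genes moved in both directions. Of 36 collagen and matrix genes 9 rose and 6 fell. Fibronectin FN1 went from 683.9 to 428.1 and SPARC from 1930 to 1550, while COL14A1 went from 183.4 to 366.6, agrin AGRN from 65.2 to 144.8 and tenascin TNC from 77.1 to 144.9. FN1 and SPARC rose in clone 2, by 0.47 each. Of 26 genes of the mesenchymal neuroblastoma state 4 rose and 6 fell, CD44 the furthest, from 122.2 to 20.4, and YAP1 by 0.54 on the log2 scale. CD44 fell further in clone 2, by 4.54 (adjusted p of the difference = 2.47e-05). There 7 of 24 genes of the mesenchymal list rose and 9 fell. With rescaled statistics the counts in clone 1 were 1 rise and 2 falls for the matrix list. For the mesenchymal list they were 0 rises and 2 falls, CD44 and FN1.

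Germline genes gave some of the widest moves. Of 18 cancer-testis and other germline or stem cell genes 3 rose and 8 fell, and with rescaled statistics 2 and 2. GAGE2A rose from an implied mean of 26.9 to 729.1, 27.1-fold, while its relative GAGE1, at a mean count of 2930, stood at 0.03 (q = 0.805). GAGE copies are nearly identical on chromosome X, and 31 of 37 GAGE, PAGE and XAGE symbols were listed at 0, so reads may be shared among copies and the value of any 1 copy is uncertain. CTCFL, the germline relative of CTCF, went from 3859 to 5821 and was 3.00 lower on the log2 scale in clone 2. PAGE1 fell in clone 1 from 661.0 to 101.0, and stood at -6.19 in clone 2.

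Position along the chromosomes was looked at next, with the order of genes from RefSeq and 10895 Status OK genes whose mean count reached 50. Chromosome medians ran from -0.06 on chromosome 18 to 0.05 on chromosome 19, and between -0.02 and 0.01 on every chromosome with the GC trend removed. Within chromosomes 40 runs of at least 3 neighbours called in the same direction were found, 3 of them with at least 5 genes.

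The longest run was 16 genes on chromosome 13, from KLF12 to SLITRK5, all called higher by 0.35 to 1.05 with a median of 0.66, which is 1.58-fold. It held MYCBP2, a ubiquitin ligase (3285 to 5495 implied counts), KCTD12, a GABA receptor subunit (1691 to 3029), SLAIN1, NDFIP2 and the ERK brake SPRY2. The 8 genes before it ran from -0.28 to 0.27 and the 8 after it from -0.28 to 0.17. The other 186 genes of the chromosome had a median of -0.06, with 10 called higher and 24 lower. In clone 2, against the same wild type libraries, the 16 genes had a median of 0.55 and ran from 0.04 to 1.53. There 13 of the 16 were called higher and 0 lower. In the RPE1 knockout the 14 that were measured had a median of 0.0029. Of these, 6 were called higher and 4 lower, with LMO7 at -0.73 and SLITRK5 at 0.80. SPRY2 counts both here and among the feedback genes above.

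**Figure D4:**
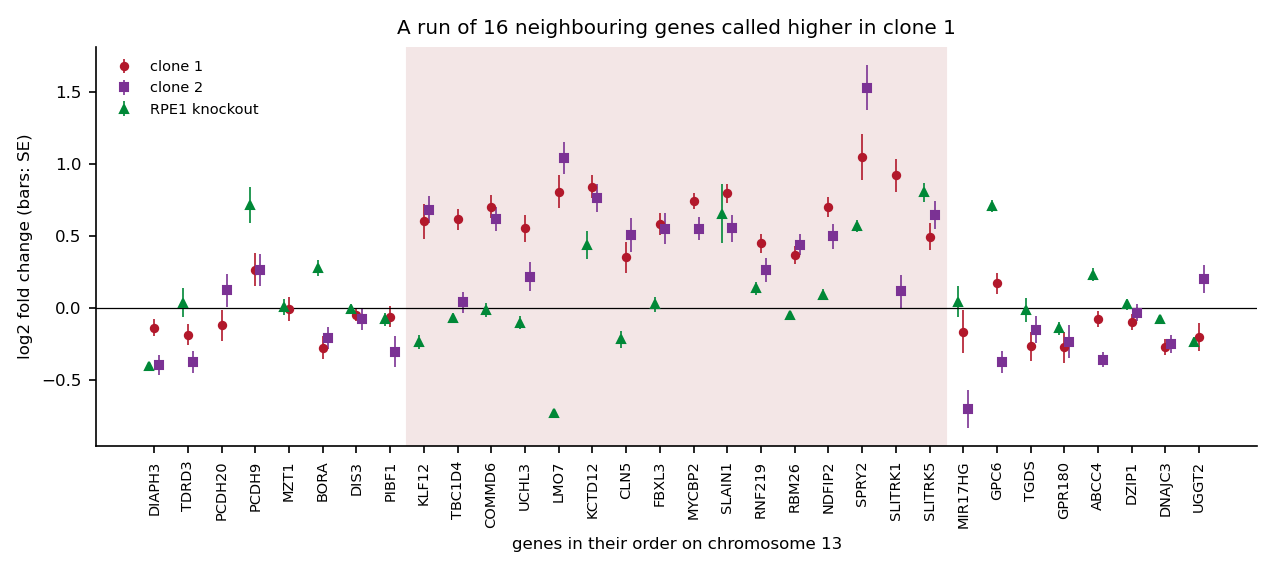
Log2 fold change with SE of neighbouring genes on chromosome 13 in their order, in clone 1 (red circles), clone 2 (purple squares) and the RPE1 knockout (green triangles). The shaded 16 genes are all called higher in clone 1, at 0.35 to 1.05, and the genes on either side lie between -0.28 and 0.27.

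A run of 7 genes on chromosome 17, from OSBPL7 to CDK5RAP3, rose by 0.21 to 2.22. LRRC46, in its midst, went from 35.0 to 163.0, its neighbour SCRN2 rose by 0.88, and the remaining 5 rose by 0.21 to 0.39. LRRC46 stood at 0.07 (q = 0.832) in clone 2. TRIM37 lies on the same chromosome, whose median was -0.0017. On chromosome 19 the adjacent zinc finger genes ZNF345, ZNF829 and ZNF568 fell by 1.23, 1.78 and 1.49, while 20 genes around them ran from -0.17 to 0.25 and 1 of these was called. ZNF829 and ZNF568 stood at 0.20 and 0.16 in clone 2 and were not called there. In the RPE1 knockout ZNF345, ZNF829 and ZNF568 were called lower too, at -0.62, -0.77 and -0.60. The nearby ZNF420 and ZNF585A, not called in clone 1, fell in the RPE1 knockout as well, by 0.81 and 0.73.

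In the amplified MYCN neighbourhood DDX1 and MYCN stood out by level. DDX1, an RNA helicase gene next to MYCN, had the highest mean count per kilobase of 12395 genes, 546681, and held 5.31% of all mean counts in the table. Its mean count was 1540000, against 6300 in the RPE1 table. By mean count per kilobase MYCN ranked 33, and the nearby NBAS and FAM49A ranked 705 and 11765. DDX1 fell by 0.12 (q = 0.0317) and NBAS by 0.14, while MYCN rose by 0.35 (SE 0.062, q = 1.01e-06) and its antisense gene MYCNOS by 0.25. MYCN and MYCNOS overlap, and no source used here gives the strand setting of the counting, so their reads may not be told apart. MYCN stood at 0.01 in clone 2 (q = 0.947), and the difference passed (adjusted p = 0.00127).

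The 671 genes with Status Outlier carry a q of 1 and were never called. Their median log2 fold change was 0.25, with 527 above 0 and 144 below, and if kept 196 would have passed upward and 9 downward. Where the mean count reached 50, the largest changes among them were of IFI44L, an interferon-induced gene (-2.15, SE 0.16), GBP2, an interferon-induced GTPase (1.76), GLDC, the glycine decarboxylase (1.63), the neuropeptide precursor VGF (1.58), the potassium channel KCNA2 (1.52) and FABP7, a fatty acid carrier of glia (1.38). PCSK1N (1.28), ARHGAP36 (-1.27), JUND (1.26), ISLR2 (1.24), JUN (1.24), PKNOX2 (-1.18), C19orf60 (1.09), CCDC85B (1.07) and ATP5D (1.07) followed. JUN and JUND belong with the early genes above and VGF and PCSK1N with the granins.

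The highest mean counts with Status Outlier were of ACTG1, STMN1, IGSF1, FASN, TUBA1A, SCD, FLNA, TUBB3, RAI14 and OLFM1, and of these TUBA1A (0.57) and TUBB3 (0.40), neuronal tubulins, lay furthest above 0. In the neuronal cytoskeleton list 10 further members were set aside this way. They included MAPT (0.66), PRPH (0.62) and DCX (0.44), and all 10 lay above 0.

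One pathway was mostly set aside. Of 36 cholesterol and fatty acid synthesis genes 24 had Status Outlier, against 671 of 13462 genes above the count limit (4.98%). They included HMGCS1 and SQLE, of cholesterol synthesis, and FASN and SCD, of fatty acid synthesis. Their log2 fold changes ran from -0.25 to 0.37 and 0 of them would have passed if kept. Their median SE was 0.186, near the 0.168 of all Outlier genes. It was 0.0597 for Status OK genes of a mean count between 1000 and 40000, while the mean counts of the 24 began at 303. Of the 11 with Status OK, 0 rose and 1, ACLY, fell by 0.11. In clone 2, against the same wild type libraries, 24 of the 36 also had Status Outlier. For the RPE1 knockout 0 had Status Outlier and 34 had Status OK. Why these genes were set aside was not tested.

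Changes followed the GC content of the transcript. Among genes whose mean count reached 100, the tenth with the lowest GC content had a median of -0.08, with 37 called higher and 190 lower. The tenth with the highest had a median of 0.18, with 254 higher and 13 lower, and 26.1% of its genes had Status Outlier against 1.67% in the lowest. Of the lists above, mitosis, repair and centriole genes lie at median GC contents of 42.6, 42.8 and 40.7%. Neuronal cytoskeleton and early genes lie at 52.97 and 52.98%, against 47.9% for all Status OK genes. Not every list ran with GC content. DNA replication genes, of which 16 fell, lie at 47.9%, and Wnt genes, of which 7 fell, at 52.4%. The 3 p53 lists, which rose, lie at 45.3, 47.6 and 47.3%. With the median of each of 20 GC bins subtracted, a step chosen after seeing the data, 947 genes rose and 690 fell. The part of library preparation or of biology in this trend was not tested.

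**Figure D5:**
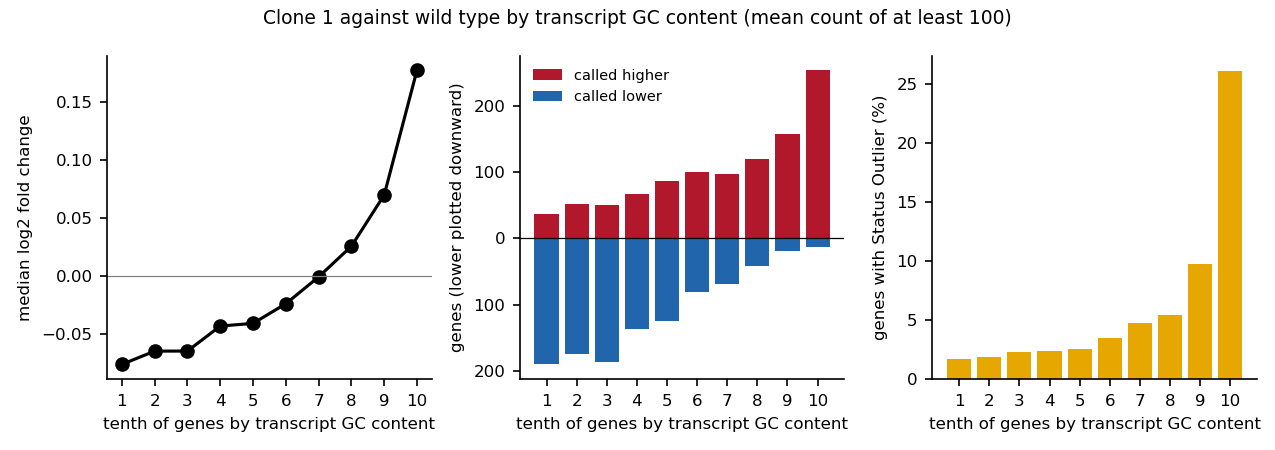
Genes whose mean count reached 100, in 10 equal groups by transcript GC content, lowest to highest. Left, median log2 fold change of Status OK genes, from -0.08 to 0.18. Middle, numbers called higher (red) and lower (blue, plotted downward). Right, percent of genes with Status Outlier, from 1.67 to 26.1.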

How the data were processed

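The 39 libraries are RNA sequencing of cultured CHP-134 and RPE1 cells. STAR and DESeq2 are named, without versions, per the submitters' processing notes. No source used here gives the build, annotation, strand setting or any shrinkage of fold changes. Per the file headers, the authors deposited 1 table per comparison with a Status, a mean count (treated as a score, since its scaling is not stated), the log2 fold change, its SE and a q value (adjusted p-value), all to 3 significant digits. A q printed as 0 is below the smallest value held. Depth per library is unknown, so precision is that of the authors' SE, with a median of 0.0863 over Status OK genes, 0.243 at mean counts from 10 to 100 and 0.0597 from 1000.

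The plan allowed for counts. Since the files hold only the comparison, the authors' q under 0.05 was taken as deposited, and counts were not modelled again. Differences between comparisons were tested by dividing the difference of both log2 fold changes by its SE (the squared SE of each are added), with a two-sided normal p and Benjamini-Hochberg adjustment over all genes with Status OK in both. The scripts were tested on simulated data. The samples were grouped by their labels.

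The members and the 63 gene lists were chosen with earlier results of these data known. Named genes are TRIM37, the 20 genes that rose most and the 20 that fell most among those called whose mean count reached 50, the 4 smallest q values in each list with at least 2 called members, 8 fixed genes, cell type markers, and Status Outlier genes by size of change (15) and by mean count (10). Other genes are named to fill out a list or a chromosome run and were chosen after their values were seen. Gene order and promoters are from RefSeq GRCh38.p14, which matched 22699 symbols. GC content is that of the longest GENCODE v29 transcript, known for 96.9% of Status OK genes. Python 3.11.15 with pandas 2.3.3, numpy 2.4.6 and scipy 1.17.1 was used. Alternatives were other thresholds, count filters, recomputed q, Outlier genes kept, and centred, rescaled, chromosome-adjusted and GC-adjusted values. Results of some genes are not reported here.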

Additional observations from a re-analysis of the deposited data

Results flagged for a closer look

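Some genes among the largest changes of clone 1 were called in the opposite direction in clone 2, and the difference between the clones passed for each. The clone 1 log2 fold change exceeded that of clone 2 by 2.08 for DTNA, 3.09 for LOC283731 and 2.97 for NPY. The difference, clone 1 minus clone 2, was -6.55 for GTSF1, -5.77 for RCN1, -5.09 for CALD1, -3.26 for TMEM56 and -2.75 for ZIK1. Across all genes measured in both, 357 were called with opposite signs in the clones and differed in the test. Between clone 1 and the RPE1 knockout, which is another cell line, 521 were. Each clone is 1 clone, and clone-to-clone variation cannot be told apart from the TRIM37 change.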

How the results depend on the processing

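No named gene that was called changed direction under the alternatives run for it, while CD68, PTPRC and TP53BP1, which were not called, changed sign near 0 with the GC trend removed. The numbers called moved. Of 2388 genes called in clone 1 (1228 higher, 1160 lower), 1450 (783 and 667) were called at a q under 0.01, 474 (321 and 153) with a change of at least 1.5-fold, 142 (68 and 74) with a log2 change of at least 1, and 243 (155 and 88) with statistics rescaled to their central spread. With rescaling the genes whose change differed between CHP-134 clone 1 and clone 2 went from 2580 to 599, and the genes whose change differed between CHP-134 clone 1 and the RPE1 knockout from 3813 to 663. Removing the GC trend, added after seeing the data, left 690 lower and 947 higher. The share called higher, 51.4% in the main count, was 59.5% with values centred on the median, 60.1% with chromosome medians removed, 63.8% with rescaling and 57.8% with the GC trend removed. No paired analysis was possible because the tables used here hold no value per library, and for the same reason leaving out single libraries was not run. Genes at low mean counts carry the largest SE, so small changes there were not detectable.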

Other observations

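Counts for further gene groups are to be read against 9.6% of all genes called higher and 9.07% called lower. Of 32 cadherin and immunoglobulin adhesion genes 11 rose and 4 fell, with a median of 0.14, and ALCAM, a cell adhesion molecule, rose by 0.40 in clone 1 and stood at -1.38 in clone 2. Of 27 matrix protease and inhibitor genes 7 rose and 2 fell. Of 34 proteasome genes 0 rose and 8 fell, with a median of -0.09, and with the GC trend removed 0 fell. Of 26 genes of the unfolded protein response and chaperones of the endoplasmic reticulum 3 rose and 8 fell. Of 22 genes of poly(A) tail and 3 prime end processing 1 rose and 7 fell, the rise being PABPN1, the nuclear poly(A) binding protein, at 1.19. Of 31 glutathione transferase and NRF2 target genes 1 rose and 4 fell, among them GSTT1, which fell by 2.03 in clone 1 and rose by 0.86 in clone 2. The share called in that list, 16.1%, was below the 18.7% of all genes. Cytosolic ribosomal protein genes gave 3 rises and 0 falls of 71, 4.23% called, with a median of 0.05. With rescaled statistics the rises and falls were 1 and 1 for adhesion, 2 and 0 for matrix proteases, 0 and 0 for the proteasome, 0 and 1 for the unfolded protein response, 1 and 0 for poly(A) processing, 0 and 2 for the glutathione list and 0 and 0 for ribosomal proteins.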
